A study of Mus musculus with 38 samples.

Results

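The nuclear genes for the mitochondrial respiratory chain were followed across sorted CD11b+ myeloid cells of mouse blood, ear skin and skin-draining lymph node. Genes were taken by name alone: every gene whose symbol begins with Ndufa, Ndufb, Ndufc, Ndufs, Ndufv, Sdha, Sdhb, Sdhc, Sdhd, Uqcr, Cox4, Cox5, Cox6, Cox7, Cox8 or Atp5 and that has a probe set annotated with this symbol only. This gave 93 of the 19937 genes tested, and where a gene had several probe sets (18 of the 93) the brightest on average stood for it. They comprise 34 subunits of complex I, 4 of complex II, 8 of complex III, 19 of complex IV, 17 of ATP synthase and 11 assembly factors that share these prefixes. Of the 19 complex IV genes, 11 are widely expressed and 8 are tissue-restricted isoforms. A further 4 symbols with these prefixes, Cox7c, Ndufb4, Ndufb4b and Ndufs5-ps, lie on probe sets shared by several symbols.

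RNA was measured on 38 Affymetrix Gene 1.0 ST arrays for 13 populations of wild-type C57BL/6 female mice aged 6 weeks, and each array holds cells pooled from several animals. At steady state the populations were Ly6Chi CD11b+ blood monocytes, CCR2+ dermal monocytes called P1 (CD64low Ly6Chigh MHCII-), P2 (CD64+ Ly6Chigh MHCII+) and P3 (CD64+ Ly6Clow MHCII+), CD64+ CCR2- dermal macrophages called P4 (MHCII-) and P5 (MHCII+), CD64- MHCII+ dermal dendritic cells (DC), and migratory DC of the cutaneous lymph node. The node cells were gated as CD11c+ MHCIIhi CD11b+ CD24- CD64-. Dermal P1, P2 and DC and node DC were also taken 3 days after the ear skin received 10 µl of 0.5% dinitrofluorobenzene (DNFB), a contact sensitiser, and so were CD64+ Ly6C+ MHCIIhi cells of the node, for which the label fields disagree on the name (non-DC, monocyte or DC). Every population has 3 arrays except P1 after DNFB, which has 2. Skin was digested with dispase and collagenase 4 and node with collagenase 2, and the density gradients also differed, so tissue, digestion and sort gate cannot be told apart in any comparison of node with dermal cells.

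Values are deposited log2 intensities per probe set, so a difference of 1 is a 2-fold difference. A level of one probe set was not set against that of another, because probes differ in brightness. Each difference is given with its standard error (SE), each group mean with its standard deviation (SD), and a gene rose or fell, or was called, where limma's moderated test gave a Benjamini-Hochberg adjusted p under 0.05 over all 19937 genes. Values under 4.02, the 40th percentile of the whole table, are treated as low signal. The labels describe separate pools of mice as replicates, and the p-values measure the spread between these pools. In bulk RNA of sorted cells, fewer cells of a type and less RNA per cell cannot be told apart.

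The respiratory chain passes electrons from NADH (at complex I) and from succinate (at complex II) through complexes III and IV to oxygen, and ATP synthase uses the proton gradient that results. Most subunits are encoded in the nucleus and imported, while a small set of core subunits is encoded in mitochondrial DNA. DC and macrophages are known to shift between oxidative metabolism and glycolysis when they are activated, and complex II links the chain to succinate, a metabolite that accumulates in inflammatory macrophages. Nuclear respiratory chain genes are known to share binding sites for the transcription factors NRF1, GABP (an ETS factor), ERR and YY1.

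The general quality of the libraries bore on the results in a few places. Array medians lay between 4.39 and 4.65, and arrays of a group correlated at 0.947 to 0.993. Dendritic cell marker genes averaged 9.70 in dermal DC and 9.44 in node DC (11 and 10 of 11 markers above the low-signal line), while B cell markers averaged 4.26 and 4.22. Markers of skin cells moved with tissue: the 14 keratinocyte markers averaged 6.51 in dermal DC (6.27 to 6.85 over arrays) against 4.60 in node DC (4.48 to 4.70), and 12 of 14 were above the line in both. The 12 fibroblast markers averaged 5.48 against 4.51, with 11 and 9 of 12 above the line. The 12 macrophage markers averaged 7.85 against 5.25. The third P5 array stood apart for the genes described here, as given with its results.

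Promoter sequences were searched for motifs known from nuclear respiratory chain genes. RefSeq promoters (GRCm38.p6, 250 bases before to 50 after the start) were found for 77 of the 93 genes. Motifs were searched on both strands as exact letters. The NRF1 core GCATGCGC was present in 12 of 77 (15.6%) against 3.05% of 27025 genes with a promoter. The ETS motif CCGGAAG was present in 21 (27.3%) against 9.93%, the YY1 motif AAGATGGCG in 7 (9.09%) against 1.64%, and the ERR motif TCAAGGTCA in 2 (2.6%) against 0.466%. At least 1 of GCATGCGC, CCGGAAG, AAGATGGCG and TCAAGGTCA was found in 35 of 77 (45.5%) against 14% of all genes. Motifs common to many promoters were less unequal: GGGCGG was in 48.1% against 38.2%, CCAAT in 42.9% against 41.1%, and TATAAA in 11.7% against 15.7%. These are matches of letters, and binding was not measured. Widely expressed genes were not set apart in the background.

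The 120 bases before the start are printed for 5 of the genes that were lower in node than dermal DC in both states. They were picked because they hold an NRF1 core, ETS or ERR match there, as examples of these motifs. The promoters of Sdhaf1 and Cox6b2, the genes with the widest spread between populations, are set beside them and hold none of these matches in these bases. Cox6b2 was also lower in node than dermal DC in both states. Capitals mark the match, and the last base printed is the one before the start site.
Ndufa6 (chr15:82354292-82354411, minus strand): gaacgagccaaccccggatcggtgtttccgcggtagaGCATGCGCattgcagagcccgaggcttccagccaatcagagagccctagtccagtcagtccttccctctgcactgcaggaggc
Sdhb (chr4:140961151-140961270, plus strand): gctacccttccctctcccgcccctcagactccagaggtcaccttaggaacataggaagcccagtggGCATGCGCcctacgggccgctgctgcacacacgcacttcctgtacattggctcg
Ndufb7 (chr8:83566638-83566757, plus strand): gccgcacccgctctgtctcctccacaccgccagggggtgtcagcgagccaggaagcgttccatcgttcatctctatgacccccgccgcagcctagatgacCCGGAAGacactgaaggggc
Uqcr11 (chr10:80406822-80406941, minus strand): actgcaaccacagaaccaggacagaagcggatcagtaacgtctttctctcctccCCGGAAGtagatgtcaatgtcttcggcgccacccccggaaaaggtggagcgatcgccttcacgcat
Atp5g3 (chr2:73911327-73911446, minus strand): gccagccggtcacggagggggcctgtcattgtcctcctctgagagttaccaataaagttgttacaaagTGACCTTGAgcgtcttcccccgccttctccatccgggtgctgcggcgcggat
Cox6b2 (chr7:4753095-4753214, minus strand): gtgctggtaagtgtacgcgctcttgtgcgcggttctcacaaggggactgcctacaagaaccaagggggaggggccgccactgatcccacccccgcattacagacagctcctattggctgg
Sdhaf1 (chr7:30322376-30322495, minus strand): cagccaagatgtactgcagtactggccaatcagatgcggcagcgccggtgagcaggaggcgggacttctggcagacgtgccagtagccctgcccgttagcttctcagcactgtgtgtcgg
In Ndufa6 and Sdhb the capitals are the NRF1 core, beginning 83 and 54 bases before the start. In Ndufb7 and Uqcr11 they are the ETS motif, 20 and 66 bases before it. In Atp5g3 they are the ERR motif read on the opposite strand, 52 bases before the start. Of the 22 genes lower in both states that have a promoter, 5 hold the NRF1 core, 5 the ETS motif, 2 the YY1 motif and 1 the ERR motif in the full window, so most of the 22 lack each of them.

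Across the 13 populations the respiratory chain genes varied by modest amounts, and for complex I dermal and node DC stood at opposite ends. Of the 93 genes, 58 (62.4%) differed between populations by the F test of limma, against 40.1% of all genes and 55.3% of the 11965 genes with no population under the low-signal line. The median range between the highest and lowest population mean was 0.88 for the 93 genes, 0.70 for all genes and 1.04 for genes above the line throughout. Complex I had the highest share with 27 of 34, followed by complex II with 3 of 4 and complex III with 5 of 8. Complex IV had 9 of 19, ATP synthase 9 of 17 and the assembly factors 5 of 11. Among the 58, dermal DC had the highest mean of all populations for 17 genes at steady state and for 12 after DNFB, and the lowest for none. Node DC had the lowest mean for 10 genes at steady state and for 15 after DNFB, and P5 macrophages for 11. The P5 means include the third array, which stood apart. The same counts over all genes are not given here, so these counts have no background beside them.

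Averaged as the log2 difference of each gene from its own mean over the 38 arrays, complex I stood at 0.33 ± 0.045 (SD, n = 3) in dermal DC and at -0.27 ± 0.13 in node DC at steady state. After DNFB it stood at 0.29 ± 0.096 in dermal DC and at -0.33 ± 0.18 in node DC. Blood monocytes, P1 to P5 cells and the CD64+ node cells lay between these by their means, with the third P5 array at -0.51. ATP synthase stood at 0.21 and 0.25 in dermal DC, at -0.14 and -0.16 in node DC and at -0.14 in P5. Complex III stood at -0.16 in P5, below node DC at steady state (-0.08) but not after DNFB (-0.17). The widely expressed complex IV genes were lowest in P5 by the mean (-0.14), with node DC at -0.03 in both states. These P5 means lean on the third array. The P5 arrays stood at -0.04, 0.04 and -0.41 for ATP synthase and at -0.03, -0.05 and -0.40 for complex III. For the widely expressed complex IV genes they stood at -0.07, 0.04 and -0.39. These averages are a description, since the genes of a complex are not replicates. The widest ranges of single genes were 3.59 in Cox6b2, 3.44 in Sdhaf1, 2.15 in Ndufaf2, 1.85 in Ndufaf7, 1.81 in Ndufs8 and 1.76 in Cox7a1. The narrowest were 0.19 in Cox8c and 0.34 in Cox4i1 and in Atp5j2, a membrane subunit of ATP synthase.

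**Figure D1:**
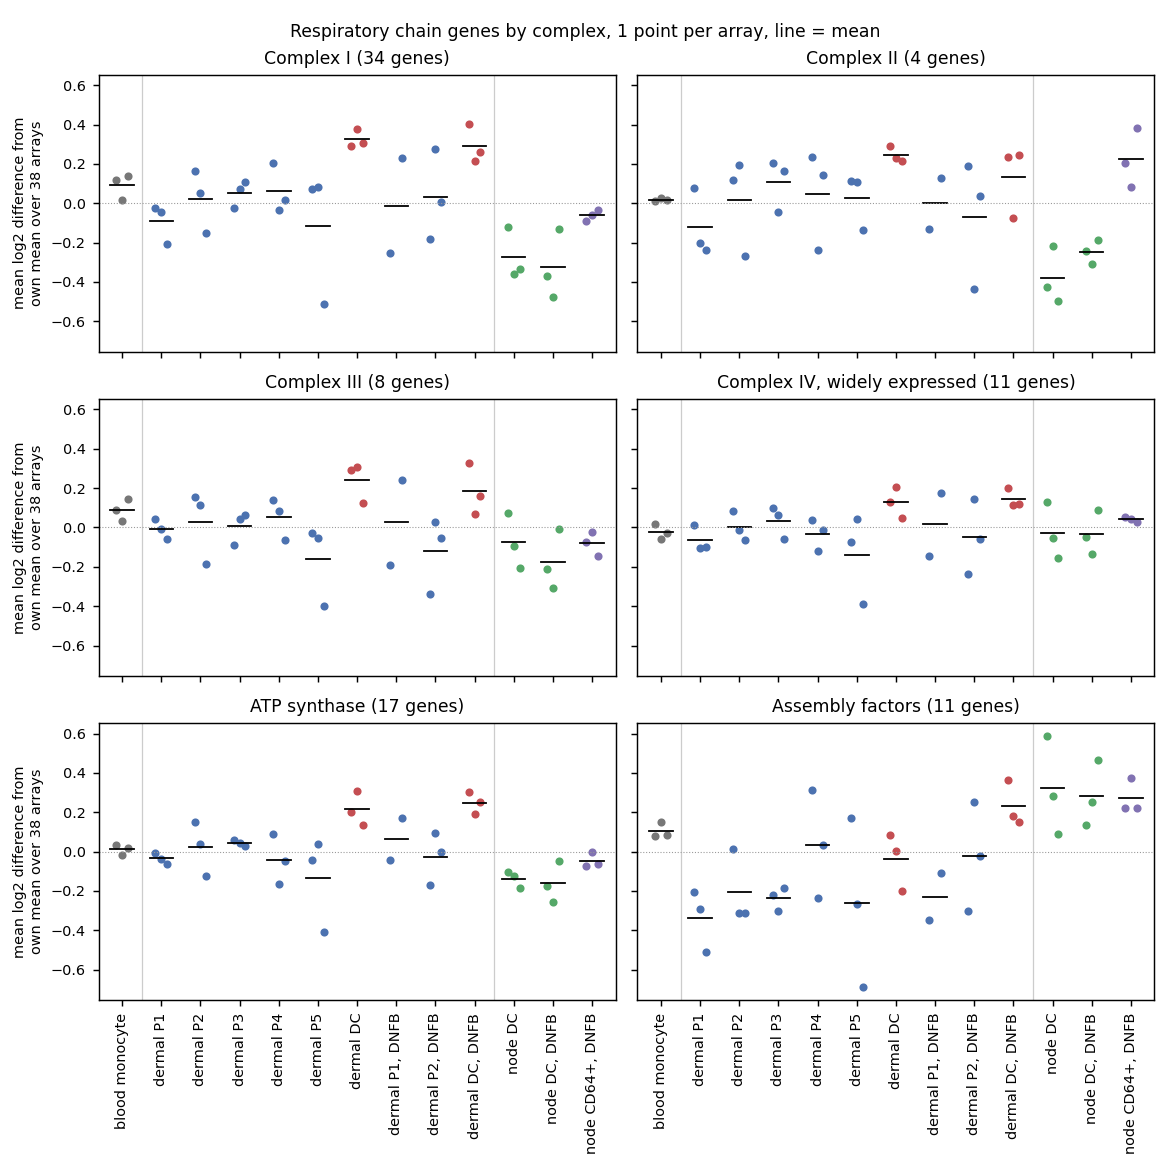
Mean log2 difference of the genes of each complex from their own mean over 38 arrays (vertical axis), by population (horizontal axis), with 1 point per array and a line at the population mean. For complex I all dermal DC arrays lie above zero and all node DC arrays below it, P5 has 1 array at -0.51, and the assembly factors do not follow this order.

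The members moved together only loosely. Over the 13 population means the median pairwise correlation was 0.40 within complex I and 0.37 within ATP synthase, 0.16 within complex II and within the widely expressed genes of complex IV, and -0.07 within complex III, against 0.01 for genes above the low-signal line. All pairs share the same libraries. The genes whose means tracked the average of the other subunits most closely were Cox7b (r = 0.898), Ndufb7 (0.896), Uqcrq (0.876) and Atp5k (0.875). Sdhaf1 (-0.469), Cox7a2l (-0.467), Ndufaf1 (-0.452) and Uqcrc2 (-0.411) ran most against it.

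The comparison of node with dermal DC asks how DC that have left the skin differ from those still in it. In node DC at steady state 30 of the 93 genes were lower and 6 higher, against a background of 20.3% of all genes called in either direction (10.1% lower and 10.1% higher). Among genes above the low-signal line throughout, 15.2% were lower and 12.9% higher. The median difference of the 93 genes was -0.36, and that of all genes 0.05. After DNFB, on other arrays, 33 were lower and 1 higher, against 17.5% of all genes called (9.04% lower and 8.44% higher) and 13.7% lower above the line, and the medians were -0.44 and 0.04. The count after DNFB fell to 19, of which 18 were lower, without the second node DC array of that state.

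Lower in both states were 24 of the 93 genes (25.8%), against 6.43% of all genes and 9.92% of genes above the low-signal line throughout. These 24 are 80.0% of the steady-state list and 72.7% of the DNFB list, and for all genes the same shares were 63.6% and 71.1%, so lower calls recurred between the states in all genes too. No member was called in opposite directions, and 67 of 93 had a negative difference in both states, against 27.1% of all genes. The arrays of the groups did not overlap for 46 genes lower in node DC at steady state (background 15.2%) and for 54 after DNFB (background 15.8%). With the keratinocyte and fibroblast marker means of each array as covariates, 41 genes were lower and 1 higher at steady state (8.38% and 6.15% of all genes in that fit), and 45 lower and 0 higher after DNFB (9.31% and 7.63%). These marker means did not overlap between dermal DC and node DC arrays in either state. Skin marker level and tissue therefore cannot be told apart by this fit. The part of the macrophage markers in the result was not tested.

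**Figure D2:**
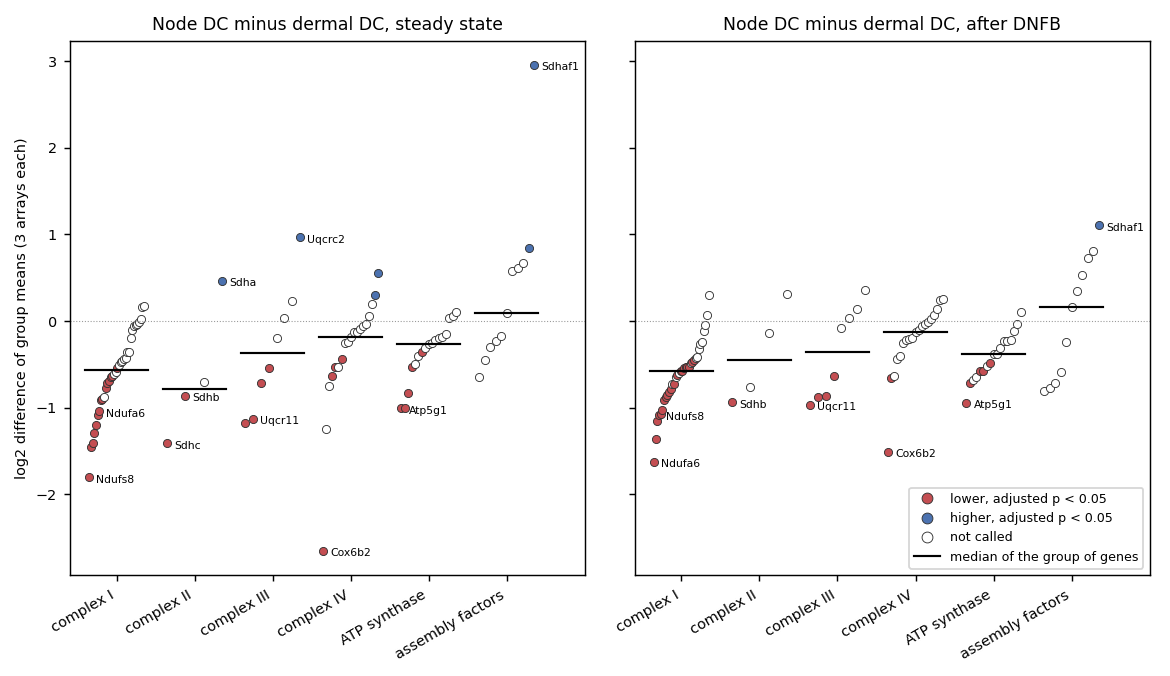
Log2 difference of node DC minus dermal DC for each of the 93 genes (vertical axis), grouped by complex (horizontal axis), at steady state (left) and after DNFB (right), with filled points for genes called and lines at the medians. The median of complex I is -0.56 at steady state and -0.57 after DNFB, and Sdhaf1 is the highest point of both panels at 2.96 and 1.11.

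**Figure D3:**
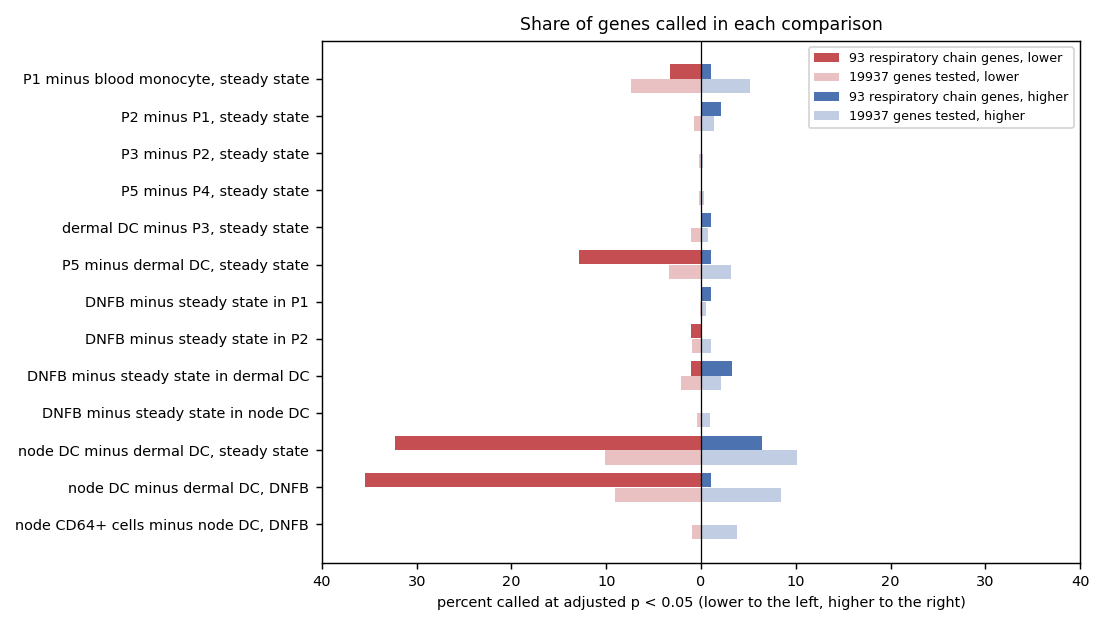
Percent of the 93 respiratory chain genes (dark bars) and of all 19937 genes (light bars) called lower (to the left) or higher (to the right) in each comparison (vertical axis). The dark bars reach past the light bars most clearly for the lower calls of node DC minus dermal DC and of P5 minus dermal DC.

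Complex I, the entry point for electrons from NADH, held the largest number of these genes: 15 of 34 were lower in node DC at steady state, 21 after DNFB and 13 in both, and none was higher. The largest difference was in Ndufs8, an iron-sulphur protein of the quinone-binding arm. Its dermal DC arrays read 9.34, 8.83 and 9.29 at steady state, and its node DC arrays 7.28, 7.07 and 7.70. The groups lie far apart, with a difference of -1.80 ± 0.21 (SE; 3.49-fold lower, limma adjusted p = 6.7e-08). After DNFB Ndufs8 read 8.93, 8.66 and 8.73 in dermal DC and 7.43, 7.73 and 7.91 in node DC, again without overlap. That difference was -1.08 ± 0.21 (adjusted p = 0.00021).

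Ndufa6, an accessory subunit of the matrix arm of complex I, gave the largest complex I difference after DNFB. Its arrays read 9.09, 9.07 and 9.14 in dermal DC and 8.18, 7.86 and 8.13 in node DC at steady state. After DNFB they read 9.41, 9.07 and 8.99 against 7.38, 7.29 and 7.94. Every node array lay below every dermal array in both states. The differences were -1.04 ± 0.24 (adjusted p = 0.0019) at steady state and -1.63 ± 0.24 (adjusted p = 7.2e-06) after DNFB.

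Ndufb2, an accessory subunit of the membrane arm, read 7.32, 7.75 and 7.51 in dermal DC and 6.87, 5.71 and 5.80 in node DC. Every node array lay below every dermal array, the first by a small margin, and the node arrays spread more than most. The difference was -1.40 ± 0.28 (adjusted p = 0.00034). After DNFB Ndufb2 read 7.71, 7.45 and 7.64 against 6.17, 6.04 and 6.50, a difference of -1.36 ± 0.28 (adjusted p = 0.00053). Ndufab1, the mitochondrial acyl carrier protein that is also a complex I subunit, was lower on its brightest probe set by -1.45 ± 0.29 (adjusted p = 0.00032) and after DNFB by -0.86 ± 0.29 (adjusted p = 0.036). The other probe set compared was far dimmer, with a mean of 4.79 over all arrays against 8.30 and a low-signal line of 4.02. It went the other way, at 0.51 and 0.31, so the direction for this gene depends on the probe set. With the mean of its probe sets the steady-state difference was -0.47 (adjusted p = 0.12).

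Of the 6 core complex I subunits measured, 2 were lower in each state. Ndufs7, the iron-sulphur protein next to the quinone site, was lower at steady state, with arrays of 7.82, 8.20 and 7.84 against 6.72, 6.66 and 6.59 and a difference of -1.30 ± 0.21 (adjusted p = 2.9e-05). Ndufv1, the flavoprotein that takes electrons from NADH, was lower after DNFB, at 7.32, 7.73 and 8.03 in dermal DC and 6.70, 6.50 and 6.81 in node DC, a difference of -1.02 ± 0.25 (adjusted p = 0.0035). Ndufs1, the largest iron-sulphur protein of the same module, lay between 5.88 and 6.47 in the 13 population means and did not pass the F test (adjusted p = 0.56). Ndufs7 was singled out after its values were seen. The other accessory subunits lower in both states were Ndufa2, Ndufa5, Ndufa9, Ndufa12, Ndufb5, Ndufb7, Ndufb8, Ndufb11 and Ndufc1, with steady-state differences from -1.20 in Ndufa9 to -0.54 in Ndufa2.

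Complex II, which oxidises succinate and is wholly nuclear-encoded, did not move as one. Sdhb, its iron-sulphur subunit, was lower in node DC in both states. Its arrays read 9.27, 9.40 and 9.07 in dermal DC and 8.41, 8.13 and 8.61 in node DC, and after DNFB 9.65, 9.27 and 9.39 against 8.36, 8.56 and 8.57. The groups were apart in both states, by -0.86 ± 0.15 (adjusted p = 6.6e-05) and -0.94 ± 0.15 (adjusted p = 2.2e-05).

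Sdhc, a membrane anchor of complex II, was lower at steady state, at 9.62, 9.92 and 9.76 in dermal DC against 8.77, 8.58 and 7.72 in node DC (-1.41 ± 0.32, adjusted p = 0.0016). After DNFB its arrays read 9.64, 9.14 and 9.77 against 8.96, 8.67 and 8.62, and it was not called. Sdha, the flavoprotein that binds succinate, went the other way at steady state, at 8.60, 8.25 and 8.67 against 8.78, 9.33 and 8.82. Its node arrays all lay above its dermal arrays, by 0.47 ± 0.17 at an adjusted p that rounds to 0.05. The CD64+ node cells had the highest Sdha mean of the 13 populations, with arrays at 9.28, 9.10 and 9.42.

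In complex III, which passes electrons from ubiquinol to cytochrome c, Uqcr10, Uqcr11, Uqcrc1 and Uqcrq were lower in node DC in both states. Uqcr11, a small accessory subunit, read 10.39, 10.17 and 10.05 in dermal DC and 9.18, 8.88 and 9.17 in node DC. The groups were well apart, by -1.13 ± 0.15 (adjusted p = 1.1e-06), and after DNFB it was -0.97 ± 0.15 (adjusted p = 1.4e-05). Uqcrc1, a core protein of the matrix side, was lower by -0.72 ± 0.19 (adjusted p = 0.0052) and -0.87 ± 0.19 (adjusted p = 0.00088).

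Uqcrc2, the partner of Uqcrc1 in the same matrix module, ran in the opposite direction. It read 8.88, 8.70 and 8.92 in dermal DC and 9.86, 9.76 and 9.78 in node DC, a rise of 0.97 ± 0.19 (adjusted p = 0.00034). With the skin marker means as covariates it was 0.53 (adjusted p = 0.22). After DNFB the dermal DC also read higher, at 9.76, 9.47 and 9.56, against 9.89, 9.90 and 10.1 in node DC, and the difference of 0.36 was not called. Uqcrfs1, the Rieske iron-sulphur protein, averaged 8.88 in dermal DC and 8.68 in node DC and was not called in either state.

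In complex IV, the terminal oxidase, the widely expressed genes went in both directions. Of the 11, 3 were lower (Cox7b, Ndufa4 and Cox8a) and 2 higher (Cox7a2l and Cox6c) in node DC at steady state, and after DNFB Cox7b alone was called, lower. Cox7b, a small membrane subunit, read 11.24, 11.14 and 10.97 in dermal DC and 10.75, 10.53 and 10.18 in node DC (-0.63 ± 0.16, adjusted p = 0.005). Cox7a2l, counted among the 11, is known as a factor that joins complexes III and IV, and the joining was not measured. Cox7a2l read 10.23, 10.24 and 10.35 against 10.76, 10.74 and 10.99, higher by 0.56 ± 0.16 (adjusted p = 0.014). Cox4i1, the common isoform of subunit 4, had population means from 10.79 to 11.13 and one of the smallest ranges of all 93 genes, 0.34 (F test adjusted p = 0.68). Cox5a ranged from 9.50 in P1 after DNFB to 10.57 in the CD64+ node cells (adjusted p = 0.00068).

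In ATP synthase, 5 of the 12 genes of the membrane part and peripheral stalk were lower at steady state. Of the 5 genes of the catalytic head and central stalk, 0 were lower. After DNFB the counts were 4 of 12 against 1 of 5. The difference between these shares was not tested. Atp5g1, which encodes the ring subunit c, read 10.44, 10.68 and 10.71 in dermal DC and 9.50, 9.67 and 9.66 in node DC. After DNFB it read 10.51, 10.31 and 10.58 against 9.76, 9.29 and 9.52. Node arrays were below all dermal arrays in each state, by -1.0 ± 0.14 (adjusted p = 2.8e-06) and -0.94 ± 0.14 (adjusted p = 8.5e-06). Atp5g3, another gene for the same subunit c, was lower by -0.83 ± 0.15 and -0.58 ± 0.15, and Atp5o, a subunit of the peripheral stalk, by -1.0 ± 0.19 and -0.71 ± 0.19. Atp5b, the catalytic beta subunit, averaged 10.42 in dermal and 10.20 in node DC and did not vary beyond replicate spread over the populations (F test adjusted p = 0.12).

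Of the 11 assembly factors, none was called lower in node DC in either state, Sdhaf1 was higher in both and Ndufaf1 at steady state. Of all genes, 10.1% were lower and 10.1% higher at steady state, and 9.04% and 8.44% after DNFB. For 11 genes these counts lie near those shares. A difference between assembly factors and subunits was not tested, and 4 of the 11 had negative differences in both states: Ndufaf4 (-0.17 and -0.77), Ndufaf5 (-0.65 and -0.81), Ndufaf7 (-0.45 and -0.59, with arrays apart in both) and Sdhaf4 (-0.30 and -0.71). Sdhaf1 helps to insert the iron-sulphur clusters of Sdhb, whose own probe set was lower in the same cells. Sdhaf1 arrays read 7.80, 7.05 and 7.62 in dermal DC and 10.65, 10.54 and 10.14 in node DC, a difference of 2.96 ± 0.33 (7.76-fold, adjusted p = 4.2e-08). After DNFB they read 8.99, 8.92 and 8.71 against 10.0, 9.93 and 10.0, a difference of 1.11 ± 0.33 (adjusted p = 0.016). Node DC of both states lay above every other array of the series for this gene. The call after DNFB is lost without the third dermal array of that state (1.03, adjusted p = 0.07) and with the skin markers as covariates (1.13, adjusted p = 0.063). Ndufaf1, a complex I assembly factor, read 4.78, 5.13 and 4.28 against 5.37, 5.69 and 5.65 at steady state (0.84 ± 0.30, adjusted p = 0.044), a call that is lost when any of 5 of the 6 arrays is left out.

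**Figure D4:**
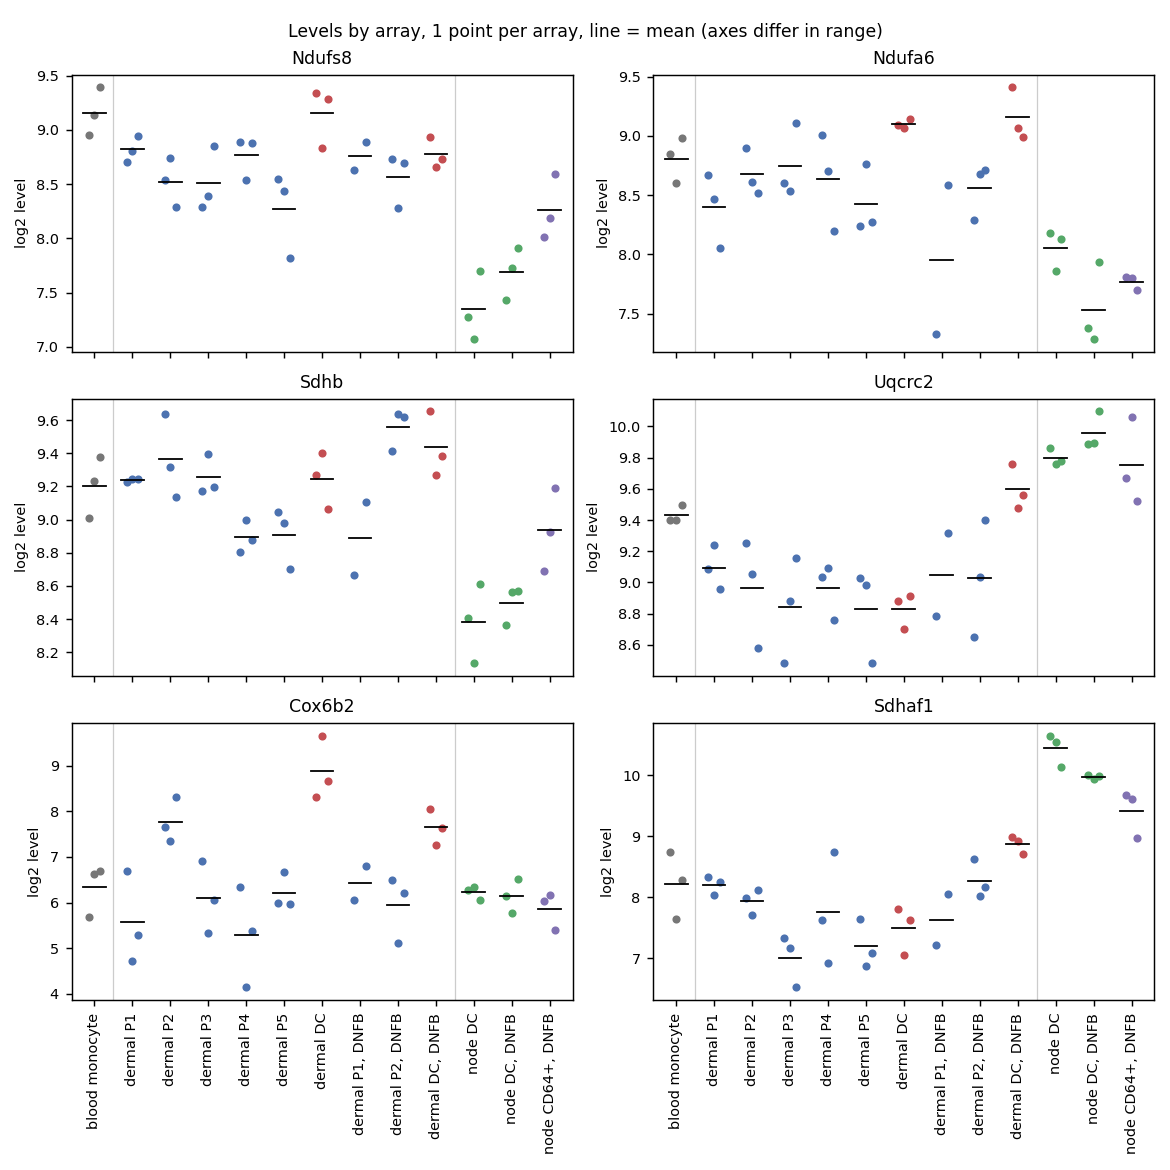
Log2 level by array (vertical axis, a range of its own in each panel) in the 13 populations (horizontal axis) for Ndufs8, Ndufa6, Sdhb, Uqcrc2, Cox6b2 and Sdhaf1, with a line at each population mean. Node DC sit lowest for Ndufs8 and Sdhb and highest for Uqcrc2 and Sdhaf1, and dermal DC of both states and steady-state P2 cells sit highest for Cox6b2.

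Of the 8 tissue-restricted isoforms of complex IV, 3 passed the F test: Cox6b2, Cox6a2 and Ndufa4l2. Cox6b2, an isoform best known from testis, had the widest range of all 93 genes, 3.59, from 5.29 in P4 to 8.88 in dermal DC. Its arrays read 8.31, 9.66 and 8.66 in dermal DC, 7.66, 7.35 and 8.30 in P2, and 8.04, 7.27 and 7.64 in dermal DC after DNFB. All other populations averaged 6.43 or less, and every one of their arrays lay under those of dermal DC. It was higher in dermal DC than in P3 (2.77 ± 0.50, adjusted p = 0.0013) and in P2 than in P1 (2.20 ± 0.50, adjusted p = 0.013). It was lower in P5 than in dermal DC (-2.67 ± 0.50, adjusted p = 0.00059), in node DC at steady state (-2.65 ± 0.50, adjusted p = 0.00017) and after DNFB (-1.51 ± 0.50, adjusted p = 0.034). The last call is lost when any of 4 of its 6 arrays is left out, and the difference between P2 and P1 when any of 3 of 6 is left out (adjusted p 0.065 to 0.085). The comparisons with P3, P5 and steady-state node DC share the untreated dermal DC arrays. The common isoform Cox6b1 had a range of 0.37 and did not vary beyond replicate spread (F test adjusted p = 0.51).

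Cox6a2, the isoform of heart and skeletal muscle, was high in the macrophages alone. It read 7.03, 6.35 and 6.31 in P4 and 7.22, 6.77 and 6.42 in P5, and every array of the other 11 populations read 6.13 or less. P5 exceeded dermal DC, at 5.50, 5.52 and 5.91, by 1.16 ± 0.21 (adjusted p = 0.00043). The skeletal muscle marker list averaged 4.39 to 4.73 in the 13 populations. Cox6a1, the liver-type isoform, did not pass the F test (adjusted p = 0.11).

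Of the other paralogue groups, Cox7a1, an isoform of muscle and brown fat, had a range of 1.76 but spread as much within groups, with P3 arrays at 8.67, 5.37 and 6.86, and did not pass (adjusted p = 0.33), nor did Cox7a2 (0.12). Ndufa4l2, a paralogue of Ndufa4 that hypoxia is known to induce, was highest in P2 at 5.96 and lowest in the CD64+ node cells at 4.24 (F test adjusted p = 0.021), while Ndufa4 did not pass (0.18). Cox4i2 lay at 4.55 to 5.19 (0.5). Cox7b2 was under the low-signal line in all 13 populations, and Cox8b and Cox8c lay at 3.62 to 4.05 and 3.87 to 4.06, so their differences carry no exact size. Cox8a, the common form, passed with a range of 0.60 (0.0018).

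The comparison of dermal macrophages with dermal DC contrasts cell types of the same tissue, and in it 12 genes were lower and 1 higher in P5, against a background of 6.52% of all genes called (3.37% lower). The median difference was -0.32 for the 93 genes and -0.02 for all genes, and 82 of the 93 differences were negative. Complex I held 8 of the lower genes, complex III 2, and complex IV and ATP synthase 1 each. Ndufb6, a membrane-arm accessory subunit, read 9.30, 9.0 and 7.91 in P5 against 9.71, 9.52 and 9.80 in dermal DC (-0.94 ± 0.25, adjusted p = 0.016). Ndufs8 read 8.55, 8.44 and 7.82 in P5 (-0.89 ± 0.21, adjusted p = 0.0057). Uqcrfs1 read 7.92, 8.03 and 8.06 against 8.52, 9.27 and 8.84 (-0.88 ± 0.20, adjusted p = 0.004), and Uqcrc1 was lower by -0.83 ± 0.19 (adjusted p = 0.0044).

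Most of these calls rest on the third P5 array. Averaged over the 74 subunits that are not tissue-restricted, this array stood at -0.44 against a P5 mean of -0.12. Without it 2 genes were lower and 1 higher, the median difference was -0.19, Ndufb6 was -0.53 (adjusted p = 0.24) and Ndufs8 -0.66 (adjusted p = 0.077), while Cox6b2 (-2.55, adjusted p = 0.0048) and Cox6a2 (1.35, adjusted p = 0.00022) still passed. Without the second dermal DC array 6 genes were called, and Ndufb6 missed the threshold without the first (adjusted p = 0.054) or the third (adjusted p = 0.066). Fibroblast markers averaged 6.60 in P5 and 5.48 in dermal DC, and keratinocyte markers 7.0 and 6.51, and with both as covariates 7 genes were called. Against MHC class II negative P4, P5 had no called gene (0.492% of all genes), and 8 were lower and 0 higher at an unadjusted p under 0.05, where 4.02% of all genes were lower and 3.43% higher.

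Few of these genes were called after DNFB. At an unadjusted p under 0.05, 14 were higher and 5 lower in P1 (6.74% and 3.72% of all genes), 5 higher and 10 lower in P2 (6.58% and 5.3%), and 7 higher and 8 lower in dermal DC (7.27% and 6.72%). In dermal DC, 3 rose and 1 fell, against 4.16% of all genes called, and the median difference was 0.01. Sdhaf1 rose from 7.80, 7.05 and 7.62 to 8.99, 8.92 and 8.71 (1.38 ± 0.33, adjusted p = 0.011), so all treated arrays lay above all untreated ones. Uqcrc2 rose from 8.88, 8.70 and 8.92 to 9.76, 9.47 and 9.56 (0.77 ± 0.19, adjusted p = 0.017). Cox6c, a small subunit of complex IV, rose from 11.19, 11.09 and 11.19 to 11.59, 11.66 and 11.46 (0.41 ± 0.10, adjusted p = 0.012). Sdhaf1, Uqcrc2 and Cox6c were also higher in node DC at steady state, a comparison that shares the untreated dermal DC arrays. Cox8a fell from 10.50, 10.60 and 10.35 to 10.08, 10.09 and 9.99 (-0.43 ± 0.13, adjusted p = 0.049). Without the second untreated dermal DC array none of the 4 passed, and Sdhaf1 was then at 1.16 (adjusted p = 0.082). Without the first treated array Sdhaf1 (adjusted p = 0.056), Uqcrc2 (0.11) and Cox6c (0.055) also missed the threshold.

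In node DC, DNFB changed none of the 93 genes at an adjusted p under 0.05 (1.34% of all genes), with 3 at an unadjusted p under 0.05 (8.42% of all genes). The effect of DNFB on Sdhaf1 differed between node and dermal DC: its mean went from 7.49 to 8.87 in dermal DC and from 10.45 to 9.98 in node DC, a difference of effects of -1.85 ± 0.47 (adjusted p = 0.04, against 1.31% of all genes). This call was lost in most fits that left out 1 array, with adjusted p up to 0.12.

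In P1, Cox5b, a zinc-binding subunit of complex IV, rose after DNFB from 10.10, 10.07 and 9.98 to 10.39 and 10.84 (0.56 ± 0.12, adjusted p = 0.021), the 1 gene called against 0.637% of all genes. Without the second treated array it was 0.33 (adjusted p = 0.45), and without the third untreated one 0.52 (adjusted p = 0.077). In P2, Uqcr11 fell from 9.98, 9.80 and 9.82 to 9.16, 9.60 and 9.16 (-0.56 ± 0.15, adjusted p = 0.047), the 1 gene called against 2.02% of all genes, and the call is lost when any of 5 of the 6 arrays is left out. Over the same arrays the fibroblast markers averaged 8.35 in untreated and 6.93 in treated P2. The keratinocyte markers averaged 7.44 and 6.31, and the neutrophil markers 4.01 and 5.12. The count with the skin markers as covariates is given with the alternatives below, and the part of the neutrophil markers was not tested. The effects of DNFB in dermal DC and P2 differed for none of the 93 genes (0.251% of all genes), with 6 at an unadjusted p under 0.05 (6.07% of all genes).

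In the comparisons of blood monocytes and dermal cells, few genes of the chain were called. In P1 against blood monocytes, 3 genes were lower and 1 higher, against 12.6% of all genes called, so the share lay well under the background. Tissue and sort gate cannot be told apart in this comparison. Keratinocyte markers averaged 6.85 in P1 and 4.39 in blood, and fibroblast markers 8.08 and 4.30. At an unadjusted p under 0.05, 3 were higher and 12 lower (16.1%, against 23.7% of all genes). Ndufaf7, an arginine methyltransferase that acts in complex I assembly, read 7.28, 7.55 and 6.85 in blood and 6.42, 5.84 and 5.59 in P1 (-1.28 ± 0.25, adjusted p = 0.00065). Atp5c1, the central stalk subunit gamma of ATP synthase, read 10.91, 10.76 and 10.76 against 10.30, 10.38 and 10.48 (-0.42 ± 0.09, adjusted p = 0.0017). Both groups were apart in each gene. Ndufaf2, another complex I assembly factor, was higher in P1 at 6.66, 5.91 and 6.76 against 4.62, 5.70 and 5.72 (1.10 ± 0.35, adjusted p = 0.039), a call lost without the first blood array (0.73, adjusted p = 0.27) or without the first or the third P1 array (adjusted p = 0.11 and 0.16). With the skin markers as covariates, which lie near the low-signal line in blood, the differences of Ndufaf7 (-0.33, adjusted p = 0.91) and Atp5c1 (-0.46, adjusted p = 0.35) were not called.

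In P2 against P1, Cox6b2 and the complex I accessory subunit Ndufc2 were higher and none was lower, against 2.09% of all genes. Ndufc2 read 10.27, 10.27 and 9.15 in P1 and 10.58, 10.71 and 10.48 in P2 (0.69 ± 0.18, adjusted p = 0.04), and without the third P1 array the difference was 0.32 (adjusted p = 0.36). The Ndufc2 call was also lost without any one P2 array (adjusted p 0.072 to 0.15). P3 against P2 had no called gene (0.371% of all genes), with 6 at an unadjusted p under 0.05 (8.93% of all genes). Dermal DC against P3 had Cox6b2 alone (1.8% of all genes), with 13 genes higher and 0 lower at an unadjusted p under 0.05 (5.22% and 5.15% of all genes) and a median of 0.19. The CD64+ node cells after DNFB had no called gene against node DC of that state (4.82% of all genes). There 13 were higher and 0 lower at an unadjusted p under 0.05 (7.33% and 7.2% of all genes), and the median was 0.13 against -0.07 for all genes.

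Partners of the chain that the name rule leaves out were read from lists of known pathway genes, in node against dermal DC. Of all genes, 10.1% were higher and 10.1% lower at steady state, and 8.44% were higher and 9.04% lower after DNFB. Cyc1, the cytochrome subunit of complex III, was lower by -0.60 ± 0.15 in both states (adjusted p = 0.0044 and 0.0049). Cycs, the mobile cytochrome c, was lower after DNFB (-0.86 ± 0.23, adjusted p = 0.0079). The mitochondrially encoded subunits with a probe set, those of complex I subunit 3 and complex IV subunit 2, differed by 0.14 and 0.20 at steady state and by -0.09 and -0.07 after DNFB, none called. Assembly factors outside the name rule were 3 higher and 3 lower of 34 at steady state, and 3 higher and 1 lower after DNFB, with Coa5, a complex IV assembly factor, higher in both (1.46 ± 0.18 and 1.00 ± 0.18).

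In the citric acid cycle, which feeds the chain, 2 of 12 genes were higher and 2 lower at steady state and 4 were lower after DNFB. The share of all genes called in either direction was 20.3% at steady state and 17.5% after DNFB. Fh1, fumarate hydratase, the enzyme that follows complex II in the cycle, was lower by -2.48 ± 0.28 and -2.59 ± 0.28. Glycolysis genes were 1 higher and 7 lower of 14 in both states, with medians of -0.64 and -0.80. Pfkp, a phosphofructokinase, was lower by -2.77 ± 0.16 and -2.53 ± 0.16, and Pfkfb3, which makes the activator of phosphofructokinase, was higher by 3.16 ± 0.27 and 2.86 ± 0.27.

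Of 18 regulators of mitochondrial biogenesis, 3 were higher and 1 lower at steady state and 2 higher and 1 lower after DNFB. These counts lay near the 20.3% and 17.5% of all genes called in either direction. Pprc1, a coactivator of nuclear respiratory genes, was lower by -1.09 ± 0.31 (adjusted p = 0.011) and -1.20 ± 0.31 (adjusted p = 0.0055). Gabpb1, a subunit of GABP, was higher at steady state (1.03 ± 0.30, adjusted p = 0.011). Among 15 carriers and import proteins, 4 were higher and 6 lower, then 1 higher and 3 lower, with Hspa9, the matrix chaperone that pulls proteins in, lower by -1.20 ± 0.19 and -1.32 ± 0.19. Of 7 antioxidant genes, 3 and then 2 were lower, among them Gpx1 in both states, and none was higher. Of 7 genes around succinate and itaconate, a list that includes Sdhaf1, 3 were higher and none lower at steady state, with the succinate receptor Sucnr1 at 0.97 ± 0.17 from a dermal level under the low-signal line, and 2 were higher and 1 lower after DNFB.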

How the data were processed

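For each of 38 arrays the authors deposited a log2 value per probe set, summarised and normalized with RMA (affy package), per the submitters' processing notes. The versions and the genome build are not given in the sources used here. The arrays were run in 3 chip batches, per the labels' protocols, but no array is assigned to one, so no batch term was fitted and batch and group cannot be told apart. No further scaling was applied to the 34760 probe sets. Those with 1 gene symbol (21640) were kept, 21553 were matched to RefSeq genes, and the brightest probe set per gene gave 19937 genes.

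A linear model with 13 group means was fitted in limma 3.58.1 (R 4.3.3; 25 residual and 3.13 prior degrees of freedom), with Benjamini-Hochberg adjustment per comparison at 0.05, and was tested on simulated data. An exact permutation of 3 against 3 arrays cannot pass this threshold. Named genes are, per comparison, up to 3 rises and 3 falls of largest size among called members whose arrays do not overlap, the 6 widest and 3 narrowest ranges, set core subunits and paralogues, and up to 3 called genes per list. Further members called in node against dermal DC were described after their values were seen. The members and lists were chosen with earlier results of these data known. Arrays were not paired by the replicate numbers in the titles. Alternatives were scaling, centring, low-value filter, probe set averaging, variance model, array weights, blocks, compared groups only, covariates and leaving out each array. Figures used matplotlib 3.10.9 in Python 3.11.15.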

Additional observations from a re-analysis of the deposited data

Results flagged for a closer look

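The effect of DNFB on Sdhaf1, the complex II assembly factor, differed between node DC and dermal DC by the test of the difference itself. The difference of effects was -1.85 on the log2 scale (limma, adjusted p = 0.04), with node DC at 10.45 untreated and 9.98 after DNFB, and dermal DC at 7.49 and 8.87. All 3 treated dermal arrays lay above all 3 untreated ones, and all 3 treated node arrays lay below all 3 untreated ones. Leaving out each array in turn gave differences from -2.00 to -1.63, and the call was lost without any of 10 of the 12.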

How the results depend on the processing

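No named difference reversed under any alternative run. In node against dermal DC, 24 to 41 members (25.8% to 44.1%) were lower at steady state over these settings, beside 8.38% to 13.9% of all genes, and 26 to 52 (28% to 55.9%) after DNFB, beside 8.79% to 13.2%. Without 1 array they were 23 to 33 and 18 to 33, beside 8.77% to 9.4% and 7.24% to 8.77% of all genes. In all, 28 to 42 genes were called at steady state and 27 to 55 after DNFB, the highest count (55) with array weights, and leaving out 1 array gave 27 to 37 and 19 to 34. The F test called 50 to 64 genes, and 53 to 61 without 1 array. Leaving out 1 array gave 2 to 6 calls for P1 against blood, 0 to 2 for P2 against P1, 0 to 1 for P5 against P4, 1 to 2 for dermal DC against P3, 3 to 14 for P5 against dermal DC, 0 to 1 for the DNFB effect in P1, 0 to 4 for that in P2 and that in dermal DC, 0 to 2 for the CD64+ node cells and 0 to 1 for the difference of DNFB effects between node and dermal DC. It gave 0 to 0 for P3 against P2, for DNFB in node DC and for the difference of DNFB effects between dermal DC and P2. Fitting only the compared groups gave 2 calls for P1 against blood, 0 for P2 against P1, 0 for dermal DC against P3, 2 for P5 against dermal DC, 0 for both DNFB effects in P1 and P2, and 1 for the CD64+ node cells. Skin marker covariates gave 2 for P1 against blood, 1 for P3 against P2, 7 for P5 against dermal DC, 2 for DNFB in P1 and in P2, and 0 for the difference of effects in node and dermal DC. Centring array medians gave 1 for P2 against P1, for DNFB effects 2 in P1, 0 in P2 and 2 in dermal DC, and 0 for the difference of effects in node and dermal DC. Array weights gave 0 for P2 against P1, 10 for the CD64+ node cells and 2 for the difference of effects in node and dermal DC. For DNFB in P1, quantile scaling gave 2, probe set means 3 and trended robust variances 2. For DNFB in P2, quantile scaling gave 5, leaving out low values 3 and probe set means 4, and leaving out low values gave 1 for P3 against P2. The causes were not tested.

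Centring moved the median of all genes from 0.05 to -0.05 in node against dermal DC at steady state, where the share of calls that were higher went from 50.1% to 37.6%, and among the members 2 were higher and 32 lower. That share went from 41.2% to 29.1% for P1 against blood, from 50.6% to 35.5% for DNFB in dermal DC, from 52.0% to 40% for the difference of effects in dermal DC and P2, and from 62.1% to 73.1% for that in node and dermal DC.

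With the replicate number as a block, 36 genes were called in node against dermal DC at steady state, 32 after DNFB, 3 in P1 against blood and 57 by the F test. The other comparisons kept their counts. Deviations of same-numbered arrays correlated at -0.26 to 0.35. With so few arrays per group, this cannot tell whether same-numbered arrays came from a shared preparation. The number of arrays per group limits the precision throughout.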
